A study of Mus musculus with 9 samples.

Results

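Wild-type mouse embryonic fibroblasts expressing GFP were compared with the same line expressing LacZ, across all genes measured. GFP is a fluorescent protein and LacZ a bacterial beta-galactosidase, and both are in common use as control inserts. The comparison rested on 2 of the 9 arrays of the study, 1 array for each insert, chosen by their titles alone. It therefore has no replicate: each difference below is a description of these 2 RNA samples, and no p-value, standard error or test is given. The cells were a spontaneously immortalised line of connective-tissue cells from wild-type mid-gestation embryos (E13.5). The same line was also measured with full-length PREX2, an activator of the GTPase Rac, and with PREX2 truncated by a stop codon (K278*, E824* or Q1430*), 1 array each. A second immortalised line, from embryos lacking the histone methyltransferase Suv420h1, was measured without an insert (untransduced), with GFP, and reconstituted with Suv420h1 fused to GFP, 1 array each. Lentiviral delivery is stated for the PREX2 constructs, and no source used here gives the passage number, density or day of harvest, or says whether either line is 1 clone.

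Cultured fibroblasts move between a proliferating and a resting state. Growth-factor signalling through the kinase ERK switches on immediate-early genes, ribosome production and the genes of DNA replication. Resting or confluent fibroblasts instead express matrix proteins, secreted binding proteins and targets of FOXO transcription factors. Interferon signalling, which cells maintain at a low level in culture, drives a separate set of antiviral and antigen-presentation genes.

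Values are MAS5 signals, linear array intensities. Differences are log2(signal + 25) on the GFP array minus the same on the LacZ array, so a positive value means a higher signal with GFP, and a gene was counted as different when this exceeded 2-fold. Of 10177 genes with a mean signal of at least 100 over the 9 arrays, 182 (1.79%) were more than 2-fold higher with GFP and 560 (5.5%) were more than 2-fold higher with LacZ. More than 4-fold separated the arrays at 12 genes higher with GFP and 105 higher with LacZ. The median difference over all genes was -0.03. The excess on the LacZ side was present at every brightness: among genes with a mean signal of 100 to 300, 2.65% were higher with GFP and 8.47% with LacZ, and among genes at 3000 or above the shares were 1.18% and 2.96%. Of the 742 genes past 2-fold, 275 had a further measured probe set; in 257 of these every further probe set differed in the same direction, and in 0 did one pass 2-fold the opposite way.

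**Figure D1:**
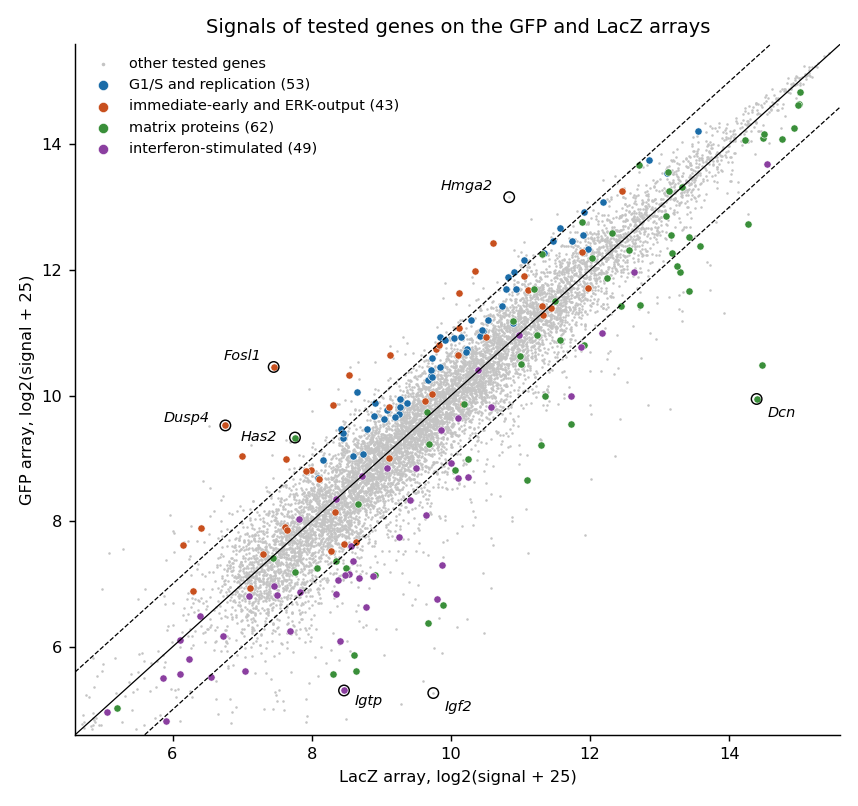
Signals of the 10177 tested genes on the LacZ array (x axis) and the GFP array (y axis), both as log2(signal + 25); each point is 1 gene, the solid line marks equality and the dashed lines 2-fold. Members of the replication and immediate-early lists lie mostly above the line and members of the matrix and interferon lists mostly below it; Has2 belongs to both the immediate-early and the matrix list and is drawn in the matrix colour. Rings mark 7 genes named in the text.

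Both arrays carried the profile of this line and of fibroblasts. The line has only dim signals of the cell-cycle inhibitors Cdkn2a (15.9 with GFP and 4.21 with LacZ) and Cdkn2b (4.32 and 4.02), which read 3363 to 4308 and 1182 to 1741 in the Suv420h1-null line. The matrix protein Efemp1 read 18429.9 and 23116 here, against at most 33.4 in the null line, and the DNA-sensing protein family member Ifi202b read 1971 and 1995 against at most 3.28. All 17 fibroblast markers reached a signal of 100 on at least 1 of the arrays, and their summed signal was 184095 with GFP and 245784 with LacZ (189768 to 251313 on the PREX2 arrays). Of the markers of other cell types, 6 of 7 epithelial, 4 of 7 endothelial, 3 of 7 macrophage, 3 of 6 neural, 4 of 6 skeletal muscle, 3 of 5 adipocyte and 3 of 4 cartilage and bone markers stayed under 100 on both arrays, and none was at 0. In RNA from a whole culture, fewer cells of a kind and less RNA per cell cannot be told apart. As an RNA control, the 3' to 5' ratio was 1.209 (GFP) and 1.358 (LacZ) for Actb and 0.815 and 0.862 for Gapdh. The Actb ratio with LacZ was the highest of the 9 arrays. On the PREX2 arrays it was 1.181 with K278*, 1.309 with full-length, 1.312 with Q1430* and 1.344 with E824*. The Gapdh ratio with GFP was the lowest of the 9 arrays. The array medians were 56.4 and 62.3. The ribosomal RNA control 18S read 7988 with GFP and 6126 with LacZ, where the GFP value was the highest of the 9 arrays (5003 to 7988). Q1430* and E824* were near it, at 7953 and 7912. The part of these control differences in the results was not tested.

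Genes of DNA replication were higher with GFP throughout the list. All 53 measured genes of the G1/S transition and replication had a positive difference, with a median of 0.69 and a range of 0.27 to 1.42, where the median of all genes was -0.03. Of these, 8 (15.1%) passed 2-fold, all higher with GFP, against 1.79% of all genes. Ccne2, the cyclin that brings CDK2 into S phase, read 1044 with GFP and 376 with LacZ, and 453 with full-length PREX2, 828 with K278*, 324 with E824* and 404 with Q1430*. It was thus highest with GFP, 2.67-fold above LacZ (log2 1.42), and next highest on the K278* array.

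Subunits and loaders of the replicative helicase were also highest with GFP and next highest with K278*. Mcm4 read 6494 with GFP, 3026 with LacZ and 2464 to 5437 on the PREX2 arrays (log2 1.10), and Mcm3 read 3976, 1888 and 1484 to 3266 (log2 1.06). Mcm10, which activates the helicase, read 681 and 318 (log2 1.04). Gins2, a subunit of the active helicase, read 1923 and 899 (log2 1.08), and Cdt1, which loads it, 7743 and 3831 (log2 1.01). For each of these genes the GFP array stood above all 5 others of the line. The chromatin remodeller Hells read 4552 and 2092 (log2 1.11). Tk1, which salvages thymidine, read 3776 and 1778 (log2 1.08).

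E2F factors bind promoters of such genes, so the letters TTTGGCGC and TTTCCCGC, forms of the E2F site, were searched on both strands of RefSeq promoters (GRCm38.p6, 250 bases before to 50 after a start site). A match was present in 14 of the 43 tested replication genes with a promoter in the table (32.6%), and in 1.8% of all 27025 genes of the table and 3.67% of 8309 tested genes. The match upstream of the start site of Hells is shown in capitals, with its flanks, as an example of a member past 2-fold (chr19:38930903-38930960, plus strand); such a match is a description and no evidence that a factor binds.
Hells: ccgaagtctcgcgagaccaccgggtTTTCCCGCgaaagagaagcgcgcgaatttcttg

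Mitotic genes differed in the same direction by less. Of 59 measured genes of G2 and mitosis, 58 had a positive difference (median 0.49) and 3 (5.08%) passed 2-fold, against 1.79% of all genes. Nek2, a kinase that separates centrosomes, read 1942 with GFP, 613 with LacZ, 884 with full-length PREX2, 1601 with K278*, 346 with E824* and 591 with Q1430* (log2 1.62). The GFP array was highest and K278* next, with LacZ below the full-length array and above E824*. Ncapg, a condensin subunit, read 1203 and 578 (log2 1.03), and Anln, a scaffold of the cleavage furrow, 10723 and 5331 (log2 1.0). The proliferation antigen Mki67 did not pass 2-fold, at 3240.4 and 2445 (log2 0.40), and its K278* signal of 3171 was close to the GFP one. With the mean of a gene's probe sets in place of the brightest, 0 mitotic genes passed 2-fold, and of the replication genes above Mcm3 and Gins2 did not.

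The regulators of the cycle themselves passed 2-fold at shares near those of all genes. Of 23 measured cyclins, CDKs and inhibitors, 0 were more than 2-fold higher with GFP and 2 (8.7%) were higher with LacZ. The shares of all genes were 1.79% and 5.5%, and the median of the list was 0.08. The 2 genes are given as values only. They were Cdkn1b (p27), the CDK inhibitor of resting cells, at 1116 with GFP and 2665 with LacZ (log2 -1.24), and Ccng2, a cyclin that restrains the cycle, at 1043 and 2334 (log2 -1.14). The GFP signal of Cdkn1b lay below all 4 PREX2 arrays (1977 to 3032), though both genes were under 2-fold when all probe sets of a gene were averaged. Cyclin D1 (Ccnd1) read 9785 and 5618 (log2 0.80), Cdkn1a (p21) 5336 and 3122 (log2 0.77), and the growth regulator Myc 1689 and 856 (log2 0.96), all under 2-fold by their brightest probe sets. Both further probe sets of Ccnd1 passed it (log2 1.09 and 1.03), as did a further one of Cdkn1a (4888 and 1753, log2 1.47).

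Factors that build ribosomes were higher with GFP, whereas ribosomal proteins were level. All 39 measured ribosome biogenesis genes had a positive difference (median 0.66) and 8 (20.5%) passed 2-fold, against 1.79% of all genes. Rrp9, which binds the U3 small nucleolar RNA, read 346 with GFP and 67.5 with LacZ (log2 2.0) and 49.2 to 151 on the PREX2 arrays. The nucleolar chaperone Nolc1 read 3326 and 1386 (log2 1.25), the RNA polymerase I subunit Polr1b 584 and 234 (log2 1.23), and the pseudouridine synthase Dkc1 5903 and 2767 (log2 1.09). Nop56 and Nhp2, core proteins of small nucleolar particles, differed by 1.12 and 1.13. Of 23 ribosomal protein genes, 0 passed 2-fold in either direction, against 1.79% and 5.5% of all genes, and the median was 0.02. Most were very bright, such as Rpl38 at 40217.5 and 39590, where the array maxima were 44826 (GFP) and 44299 (LacZ). The dimmer Rpl14 read 1296 and 1295. Both were named after their values were seen. Whether signals near the maximum can show a difference was not tested. Tfrc, the transferrin receptor that imports iron and a member of a list of 22 commonly used reference genes, was the 1 gene of that list past 2-fold, at 3769 with GFP and 1243 with LacZ (log2 1.58); the list's median was 0.14.

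**Figure D2:**
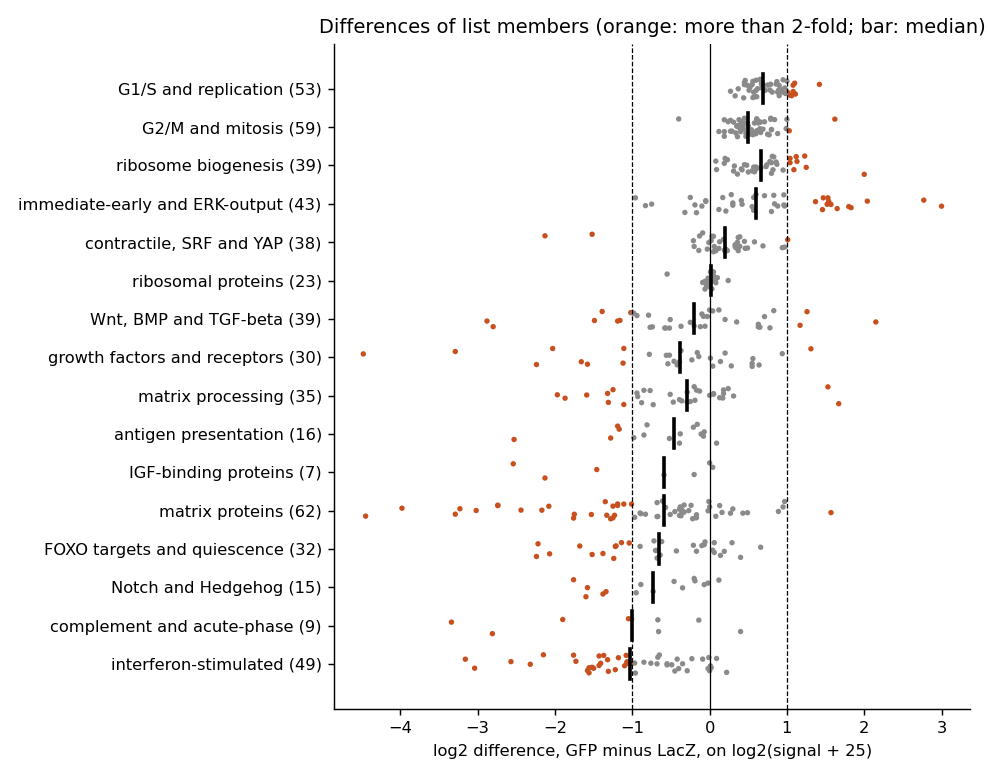
Differences between the GFP and LacZ arrays for the measured members of 16 gene lists (1 point per gene, number of members in brackets, vertical scatter for legibility only); the x axis is log2(signal + 25) with GFP minus that with LacZ, bars are medians, dashed lines mark 2-fold and orange points lie beyond it. Replication and ribosome biogenesis members all lie right of 0, while 45 of 49 interferon-stimulated and 50 of 62 matrix genes lie left of it.

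Immediate-early genes and feedback genes of the ERK pathway included the largest differences on the GFP side. Of 43 measured, 13 (30.2%) were more than 2-fold higher with GFP and 0 with LacZ, against 1.79% and 5.5% of all genes, and the median was 0.60. Fosl1 (FRA-1), the AP-1 subunit that accumulates under sustained ERK activity, read 1380.5 with GFP and 150.3 with LacZ, and 192 with full-length PREX2, 539 with K278*, 114 with E824* and 127 with Q1430*. The difference was 8.02-fold (log2 3.0), and K278* lay between GFP and the remaining arrays.

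Some negative feedback genes of the pathway were among them. Dusp4, a nuclear phosphatase of ERK, read 712 with GFP and 83.3 with LacZ, with 129.7, 324, 69.7 and 80.2 for full-length, K278*, E824* and Q1430* (log2 2.77). Dusp6, its cytoplasmic counterpart, read 1266 and 346 (log2 1.80), with 253 to 870.4 on the PREX2 arrays. Spry4, which inhibits signalling from receptor tyrosine kinases, read 171 and 46.4 (log2 1.46), and here the K278* array was at the GFP level (174). The related Spry1 and Spry2, named after their values were seen, did not pass: Spry1 was on the LacZ side at 179 and 372 (log2 -0.96), and Spry2 differed by 0.28.

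Ligands and effectors of the response were higher as well. The EGF-receptor ligands epiregulin (Ereg) and Hbegf read 503 and 3157 with GFP against 103 and 1085 with LacZ (log2 2.04 and 1.52). Ptgs2 (COX-2), which starts prostaglandin synthesis, read 5489.6 and 1528 (log2 1.83), and the urokinase receptor Plaur 1582 and 532 (log2 1.53). Phlda1, an early response gene, read 4051 and 1276 (log2 1.65). The transcription factors Maff and Egr3 differed by 1.54 and 1.47. The serum-response factors Fos and Egr1, named after their values were seen, were not higher with GFP: Fos read 160.1 and 286 (log2 -0.75) and Egr1 904 and 1132 (log2 -0.32).

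Hmga2, an architectural chromatin protein of embryonic and proliferating cells, was the 1 member of a 25-gene chromatin list past 2-fold. It read 9134 with GFP, 1807 with LacZ, 2251 with full-length PREX2, 4693 with K278*, 1216 with E824* and 1498 with Q1430* (log2 2.32). The order of the arrays was that of Fosl1. Both further bright probe sets of Hmga2 gave a like difference (8978 and 1587, log2 2.48; 3033 and 547.8, log2 2.42), and a dim one had a difference of the other sign. Further genes at the top of the GFP side were Dkk2, a secreted Wnt modulator (1079.7 and 225, log2 2.15), Dock8, an exchange factor for Cdc42 (375 and 61.4, log2 2.21), and Tnnt2, cardiac troponin T (567 and 115, log2 2.08). The desmosomal plaque protein Pkp2 and the actinin-binding protein Pdlim1 differed by 1.91 and 1.89. The keratinocyte envelope gene Lce1i read 711 and 66.9 (log2 3.0), but 16.5 to 601 over the PREX2 arrays. On the log2 scale it thus varied more among those than between GFP and LacZ. Megf10, an engulfment receptor, and C3ar1, the receptor of complement C3a, differed by 1.88 and 1.84, and the uncharacterised 1810064F22Rik by 2.14.

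**Figure D3:**
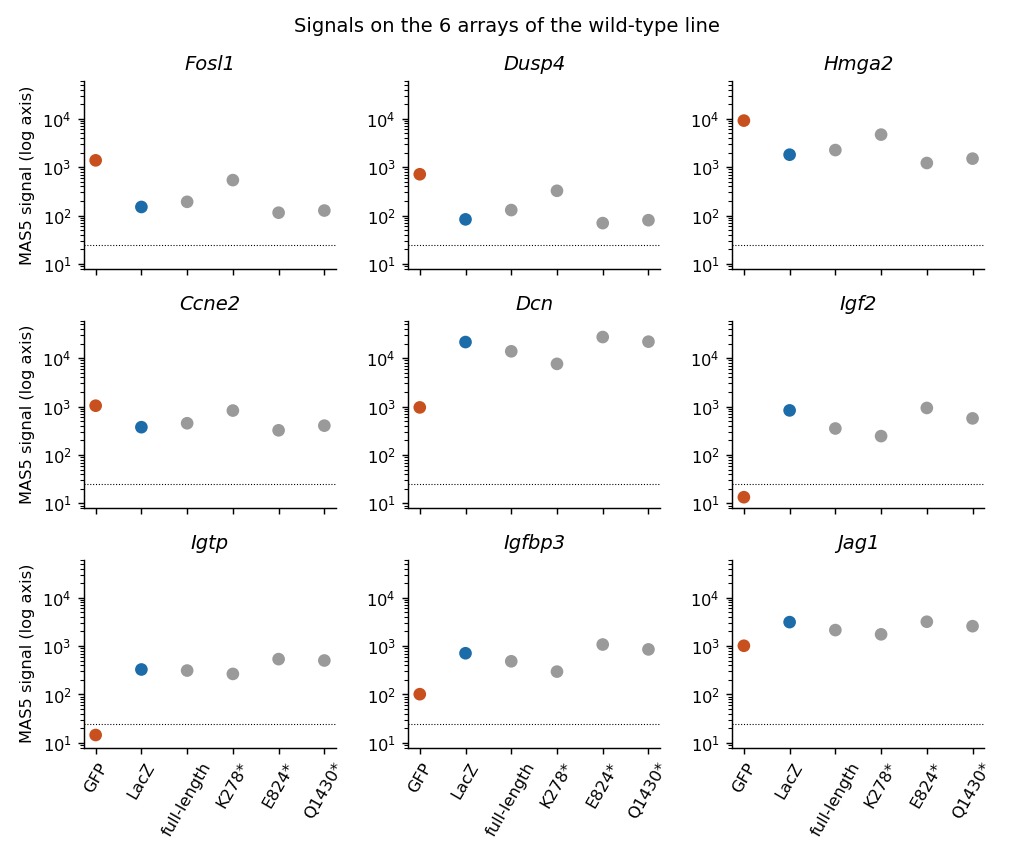
MAS5 signals (y axis, log scale) of 9 genes on the 6 arrays of the wild-type line (1 array each; orange GFP, blue LacZ, grey PREX2 constructs); the dotted line marks the offset of 25 added before log2. The GFP array is the highest of the 6 for Fosl1, Dusp4, Hmga2 and Ccne2 and the lowest for Dcn, Igf2, Igtp, Igfbp3 and Jag1.

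Most matrix genes had lower signals with GFP. Of 62 measured, 23 (37.1%) were more than 2-fold higher with LacZ and 1 with GFP, against 5.5% and 1.79% of all genes, and the median was -0.59. Decorin (Dcn), the proteoglycan that coats collagen fibrils, read 962 with GFP and 21523 with LacZ, and 13857 with full-length PREX2, 7633 with K278*, 27342 with E824* and 21936 with Q1430*. It was 21.8-fold lower with GFP (log2 -4.45), and the lowest PREX2 array, K278*, was still well above GFP.

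Some other leucine-rich proteoglycans were more than 2-fold lower as well. Lumican (Lum) read 24.00 and 373 (log2 -3.02, or -3.70 with an offset of 5, since the GFP signal lies under 25), fibromodulin (Fmod) 33.7 and 367 (log2 -2.74), and Prelp 379 and 2169 (log2 -2.44). Among microfibril proteins, fibrillin 2 (Fbn2) read 58.3 and 789.5 (log2 -3.29), Mfap5 76.4 and 926 (log2 -3.23) and Mfap2 22.3 and 291 (log2 -2.74). All were lowest on the GFP array among the 6 arrays of the line. Other members of these kinds were named after their values were seen. The proteoglycans Ogn, Omd and Aspn also passed 2-fold on the LacZ side (-1.53, -1.35 and -1.19). Biglycan (Bgn) did not, at 29320.1 and 33031 (log2 -0.17). Podn, Emilin1, Ltbp4 and Ltbp1 did not either, and differed by -0.97, -0.68, -0.02 and 0.95.

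Of the matricellular CCN proteins, 2 passed 2-fold: Ccn3 read 1415 and 22742 (log2 -3.98) with 11758 to 23660.0 on the PREX2 arrays, and Ccn5 723 and 3349 (log2 -2.17). Ccn2, Ccn1 and Ccn4, named after their values were seen, did not pass, and Ccn2 was on the GFP side at 13013 and 6623 (log2 0.97), with 0.49 for Ccn1 and -0.38 for Ccn4. The basement-membrane proteins Lama4 and Nid2 differed by -2.08 and -1.76. Others of that structure, also named after their values were seen, went both ways. On the GFP side and under 2-fold, Col4a1 read 6937 and 3742 (log2 0.89), and Nid1, Col4a2 and Lamb1 differed by 0.43, 0.30 and 0.27. Hspg2 differed by 0.08. On the LacZ side, Col4a5 passed 2-fold at 2732 and 5540 (log2 -1.01), and Col18a1 and Lamc1 differed by -0.57 and -0.45. The TGF-beta-induced Tgfbi differed by -1.75.

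By their brightest probe sets, the abundant fibrillar collagens and fibronectin were lower by less than 2-fold. Col1a1 read 5901 and 10927 (log2 -0.89), Col3a1 19699 and 31368 (log2 -0.67) and Col1a2 25623 and 32781 (log2 -0.36). A further probe set passed 2-fold for Col3a1 (2676 and 9147, log2 -1.76) and for Col1a1 (2330 and 5028, log2 -1.10). Fibronectin (Fn1) read 17093 and 19238 (log2 -0.17), and a dim second probe set of Fn1 had a difference of the other sign. The 1 matrix gene past 2-fold on the GFP side was Has2, the hyaluronan synthase, at 619.9 and 192 (log2 1.57), which also belongs to the immediate-early list. Of 35 measured genes of matrix processing, 7 (20%) were higher with LacZ and 2 (5.71%) with GFP, against 5.5% and 1.79% of all genes (median -0.29). The aggrecan-cleaving proteases Adamts1 and Adamts5 read 2587 and 1608 with GFP against 10184 and 4894 with LacZ (log2 -1.97 and -1.59). Pcolce2, an enhancer of procollagen cleavage, read 2977 and 920.0 (log2 1.67). The markers used for fibroblasts themselves followed: 5 of 17 (29.4%) were higher with LacZ, against 5.5% of all genes, and 0 with GFP (median -0.60), among them the surface glycoprotein Thy1 (1097 and 3294, log2 -1.56) and the PDGF receptor Pdgfra (1517 and 4846, log2 -1.66).

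Most interferon-stimulated genes had lower signals with GFP. Of 49 measured, 25 (51.0%) were more than 2-fold higher with LacZ and 0 with GFP, against 5.5% and 1.79% of all genes, and the median was -1.03. The minimum signal was a mean over all 9 arrays, and this list was brighter in the null line. Its mean log2 signal was 9.94 to 10.21 there, against 7.77 with GFP and 8.78 with LacZ. The 25 thus hold members dim on both arrays, such as Oasl2 (3.36 and 34.8) and Parp14 (21.1 and 69.0), named after their values were seen. With the minimum taken over the GFP and LacZ arrays, 22 passed 2-fold. The GTPases that act on the vacuoles of intracellular pathogens led the list. Igtp (Irgm3) read 14.6 with GFP and 328 with LacZ, and 312 with full-length PREX2, 266 with K278*, 538 with E824* and 503 with Q1430* (log2 -3.16, or -4.09 with an offset of 5). The GFP array lay far below the 5 others, of which E824* was the highest. Iigp1 read 83.6 and 868 (log2 -3.04), and the guanylate-binding proteins Gbp2, Gbp3 and Gbp7 differed by -2.32, -2.15 and -1.76.

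Interferon response elements in promoters hold the letters GAAANNGAAA, which were searched on both strands of the RefSeq promoters (GRCm38.p6). They were present in 18 of the 40 tested interferon-stimulated genes in the table (45.0%), in 9 of the 19 past 2-fold (47.4%), in 3.99% of all 27025 genes and in 3.51% of tested genes. The share was 8.37% over all genes higher with LacZ and 3.62% over all genes higher with GFP. The windows shown are those of the 4 members with the largest differences among members past 2-fold that had a match. Trim30a, Ifit1, Ifit3 and Bst2 also had a match upstream of a start site and are not shown. Iigp1 and Xaf1, which differed by more than the Gbp genes, had no match or no promoter to search. The start site lies downstream of the printed bases or at their end; capitals mark the element or its reverse complement. The matches begin at position -34 from the start site in Igtp (chr11:58199497-58199555), -59 in Gbp2 (chr3:142620579-142620638), -45 in Gbp3, where 2 matches overlap (chr3:142559974-142560039), and -53 in Gbp7 (chr3:142530258-142530317), all on the plus strand.
Igtp: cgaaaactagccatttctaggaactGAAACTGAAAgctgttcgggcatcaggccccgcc
Gbp2: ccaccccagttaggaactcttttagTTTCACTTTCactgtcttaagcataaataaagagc
Gbp3: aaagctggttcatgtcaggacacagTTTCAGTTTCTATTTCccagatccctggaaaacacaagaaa
Gbp7: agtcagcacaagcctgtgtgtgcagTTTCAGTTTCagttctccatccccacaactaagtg

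Antiviral effectors past 2-fold were lower with GFP too. Xaf1, an apoptosis regulator induced by interferon, read 132 and 910.0 (log2 -2.57). Bst2 (tetherin), which holds budding virus at the membrane, read 248 with GFP, 778 with LacZ, and 739.9, 604, 933 and 932 for full-length, K278*, E824* and Q1430* (log2 -1.56). Ifitm1, which blocks viral entry, read 994 and 3357 (log2 -1.73), and Parp9, Nmi, Rtp4 and Trim30a differed by -1.58, -1.56, -1.52 and -1.50. The list was not uniform: the effector Ifit2, named after its value was seen, read 1340 and 1323 (log2 0.02). Irf7, the factor that amplifies the response, also named after its value was seen, differed by 0.01 but was dim on both arrays (44.2 and 43.7). Ifi27l2a, which is outside the list, was among the 15 largest differences on the LacZ side (155 and 2184, log2 -3.62). Of 16 antigen-presentation genes, 4 (25%) were higher with LacZ, against 5.5% of all genes, and 0 with GFP (median -0.45). The immunoproteasome subunits Psmb8 and Psmb9 read 18.1 and 54.9 with GFP against 224 and 158 with LacZ (log2 -2.53 and -1.19), and the peptide transporter Tap2 128 and 347 (log2 -1.28). Tapbp, which loads peptide, differed by -1.17, whereas B2m, the light chain of MHC class I, named after its value was seen, differed by -0.11. Of 9 complement and acute-phase genes, 5 (55.6%) were higher with LacZ, against 5.5% of all genes (median -1.01): the complement protease C1s1 read 385 and 4126 (log2 -3.34), its partner C1ra 365 and 1433 (log2 -1.90), and the chaperone clusterin (Clu) 245 and 1861 (log2 -2.81). Markers of macrophages summed to 1342 with GFP and 1745 with LacZ (1702 to 2241 on the PREX2 arrays), with Ptprc, Adgre1 and Tyrobp under 100 on both; of these markers Lyz2 passed 2-fold (184 and 646, log2 -1.68).

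Cytokines were mixed. Of 20 measured cytokine and chemokine genes, 4 (20%) were higher with LacZ and 1 (5.0%) with GFP, against 5.5% and 1.79% of all genes (median -0.29). The alarmin Il33 read 59.9 and 384 (log2 -2.27), Il18 135 and 501 (log2 -1.72), and the neutrophil chemokine Cxcl1 854 and 2629 (log2 -1.59). The monocyte chemokine Ccl2 was higher with GFP, at 8675 and 3951 (log2 1.13), while the K278* array was higher still (9341).

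Of 30 measured growth factor and receptor genes, 8 (26.7%) were more than 2-fold higher with LacZ and 1 (3.33%) with GFP, against 5.5% and 1.79% of all genes. The median was -0.38, and 11 of the 30 had a positive difference. The 1 on the GFP side was the neurotrophin Bdnf, named after its value was seen (2263 and 899.9, log2 1.31). Igf2, the fetal insulin-like growth factor and an imprinted gene, had the most negative difference of all genes tested, a rank that depends on the offset. It read 13.4 with GFP, 835 with LacZ, 353 with full-length PREX2, 246 with K278*, 937 with E824* and 571 with Q1430* (log2 -4.48, or -5.51 with an offset of 5). The signal with GFP lay under the offset and below every other array of the line, and the PREX2 arrays differed among themselves, with K278* lowest. With an offset of 100 the difference of Igf2 was -3.04, behind Dcn (-4.35), Ccn3 (-3.91), Scara5 (-3.75) and Clec3b (-3.33). Igf1 read 120.1 and 1393 (log2 -3.29). Of 7 measured IGF-binding and IGF-releasing genes, 3 (42.9%) were higher with LacZ, against 5.5% of all genes (median -0.59): Igfbp3 (101 and 711, log2 -2.54), Igfbp4 (1534 and 6795, log2 -2.13) and Pappa, the protease that frees IGF from Igfbp4 (381 and 1089.8, log2 -1.46). Igfbp6 and Igfbp7, named after their values were seen, differed by 0.0 and 0.04. The TAM-receptor ligand Gas6 read 182 and 958 (log2 -2.24), with a dim second probe set of the other sign, and the lymphatic growth factor Vegfd 3276 and 13499 (log2 -2.03). Of 21 imprinted genes, 6 (28.6%) were higher with LacZ, against 5.5% of all genes, and 0 with GFP (median -0.49). Apart from Igf2 and Dcn these were the transcription factor Plagl1 (611 and 2467, log2 -1.97), Meg3 (-1.68), Mest (-1.17) and Peg3 (-1.61; a further probe set gave -1.14 and a dim one the other sign).

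Developmental signalling genes differed in both directions. Of 39 measured genes of the Wnt, BMP and TGF-beta pathways, 7 (17.9%) were higher with LacZ and 3 (7.69%) with GFP, against 5.5% and 1.79% of all genes (median -0.20). On the ligand side Wnt4 read 269.6 with GFP and 2151 with LacZ (log2 -2.88) and 1009.6 to 2774 on the PREX2 arrays, and Bmp4 1043 and 2415 (log2 -1.19). The Wnt receptors Fzd1 and Fzd4 differed by -1.49 and -1.39 and the co-receptor Lrp6 by -1.02, which was under 2-fold in 5 of 6 alternative computations, all but the offset of 5. Secreted inhibitors went either way. Sfrp1, which binds Wnt proteins, read 769.8 and 5502 (log2 -2.80) and follistatin (Fst), which binds activin, 1649 and 3715 (log2 -1.16). Gremlin (Grem1), which binds BMPs, was higher with GFP at 11097 and 4621 (log2 1.26), as was the activin subunit Inhba (2919 and 1287, log2 1.17). Of 15 measured Notch and Hedgehog genes, 5 (33.3%) were higher with LacZ, against 5.5% of all genes, and 0 with GFP. The median was -0.73, but -0.43 with an offset of 100, -0.41 against the PREX2 median and -0.35 with no minimum signal. The Notch ligand Jag1 read 1015 and 3123 (log2 -1.60) with 1747 to 3181 on the PREX2 arrays, and the receptor Notch3 218 and 590.3 (log2 -1.34). The Hedgehog co-receptors Cdon, Boc and Gas1 differed by -1.76, -1.58 and -1.38; Gas1 was bright on both arrays (7550.4 and 19739), a second probe set gave -1.26, and a dim one had a difference of the other sign.

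Of 32 genes of quiescence and FOXO targets, 11 (34.4%) were higher with LacZ, against 5.5% of all genes, and 0 with GFP (median -0.66). The 11 include Cdkn1b, Ccng2, Gas1, Gas6, Meg3 and Sesn1, which also belong to other lists, so this is not a separate result. The list had 24 negative and 8 positive differences. Among the positive ones, named after their values were seen, were Foxo3 (0.66), Cited2 (0.40), Bcl6 (0.29), Sod2 (0.19) and Cat (0.06). Pik3ip1, an inhibitor of PI3 kinase, read 179 with GFP, 924 with LacZ and 440.0 to 1359 on the PREX2 arrays (log2 -2.22). Sesn3, which restrains the growth kinase mTORC1, read 457 and 2001 (log2 -2.07), and Txnip, which limits glucose uptake, 899.8 and 2635 (log2 -1.52). The 6 arrays kept the same order at both ends for these genes, with GFP lowest and E824* highest. Of 33 measured p53 targets 3 (9.09%, against 1.79% of all genes) were higher with GFP and 2 (6.06%, near the 5.5% of all genes) with LacZ (median -0.01), among them the stress kinase Plk3 (1.23) on the one side and Sesn1 (-1.21) on the other. NRF2 and glutathione genes held 3 of 26 (11.5%, against 1.79% of all genes) higher with GFP, the quinone reductase Nqo1 (1.10), Gclc, which makes the glutathione precursor (1.08), and the thioredoxin reductase Txnrd1 (1.06), and 1 (3.85%, against 5.5%) higher with LacZ, the transferase Gstt1 (-2.45).

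Several lists stayed near the shares of all genes, which were 1.79% higher with GFP and 5.5% higher with LacZ. Of 38 contractile, SRF and YAP target genes, 1 (2.63%) was higher with GFP (Ankrd1, a YAP target, at 8676 and 4291, log2 1.01) and 2 (5.26%) with LacZ, the integrin subunit Itga1 (-2.13) and the ectonucleotidase Nt5e (-1.52); the median was 0.20. Of 33 respiratory chain, 32 Hox and positional and 26 Rac and PI3-kinase genes 0 passed 2-fold in either direction, with medians of 0.10, -0.22 and -0.11. Of 27 glycolysis and hypoxia genes 1 was higher with LacZ, the hypoxia-induced Ndrg1 (2181 and 6261, log2 -1.51), and the median was 0.22. The probe set of Prex2 itself read 452 and 677 (log2 -0.56), with 703 to 809 on the arrays of the PREX2 constructs, and Kmt5b (Suv420h1) 295 and 469.6 (log2 -0.63). Some marker lists of other cell types were further from those shares, with few members measured. On the LacZ side 1 of 3 measured adipocyte (33.3%), 2 of 3 neural (66.7%) and 1 of 2 endothelial markers (50%) passed 2-fold. On the GFP side 1 of 2 muscle markers (50%) did. The adipocyte markers summed to 2756 with GFP and 10677 with LacZ (4956 to 11135 on the PREX2 arrays), most of it lipoprotein lipase (Lpl, 2302 and 10184, log2 -2.13), while Pparg, Adipoq and Cebpa stayed under 100 on both. The neural markers summed to 1074 and 2225 (1489 to 2207 on the PREX2 arrays), with Map2 (-1.16) and Tubb3 (-1.22) past 2-fold and Sox2, Gfap and Dcx under 100. The endothelial markers summed to 403 and 719 (501 to 774), with the angiopoietin receptor Tek (-2.42) past 2-fold and Pecam1, Cdh5, Vwf and Emcn under 100. The muscle markers summed to 813 and 535 (459 to 692), with skeletal actin Acta1 past 2-fold on the GFP side (1.02) and Myod1, Myog, Myh3 and Ckm under 100. Epithelial markers summed to 310 and 492, and cartilage and bone markers to 747 and 755. The part of these markers in the results was not tested.

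Genes outside all lists made up 565 of the 742 past 2-fold. On the LacZ side the 15 largest differences held secreted and scavenging proteins. Clec3b (tetranectin) read 49.4 with GFP, 1404 with LacZ and 237 to 2318 on the PREX2 arrays (log2 -4.26). The ferritin receptor Scara5 read 195 and 3862 (log2 -4.14), and the protease inhibitor Serpina3n 9.19 and 596 (log2 -4.18, or -5.40 with an offset of 5). Lbp, which carries bacterial lipopolysaccharide, read 19.04 and 751 (log2 -4.14). Lgr5, a receptor for R-spondins, read 54.7 and 1063 (log2 -3.77) and the alcohol dehydrogenase Adh1 62.2 and 1182 (log2 -3.79). The proteoglycan epiphycan (Epyc) and the secreted Islr and Olfml1 differed by -3.66, -3.65 and -3.64, and the oxidase Cyp2f2 and Speer4b by -3.98 and -3.78.

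The 4 PREX2 arrays of the line served as a reference for both controls. For 724 of the 742 genes past 2-fold (97.6%) the GFP signal lay beyond all 5 other arrays of the line, whereas the LacZ signal did so for 133 (17.9%). LacZ differed by more than 2-fold from Q1430* at 27 genes, from E824* at 32, from full-length PREX2 at 35 and from K278* at 148, out of 10177. GFP differed from the same arrays at 878, 1116, 534 and 275. Against the median of the PREX2 arrays, GFP differed at 645 genes (6.34%) and LacZ at 10 (0.0983%). On a scale where the LacZ signal of each gene past 2-fold is 0 and the GFP signal 1, in log2, the median position was 0.44 for K278*, 0.18 for full-length PREX2, -0.04 for Q1430* and -0.12 for E824*. K278* was the nearest PREX2 array to GFP in 82.9% of the genes, and E824* the farthest in 73.9%. These positions and the shares of the 742 genes use the same GFP and LacZ arrays as the choice of the genes. They were not computed over all 10177 genes, so they are a description only.

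In 4 of the main lists the medians had the same order. Relative to LacZ, the median of the replication genes was 0.69 with GFP, 0.46 with K278*, 0.06 with full-length PREX2, -0.15 with Q1430* and -0.33 with E824*. That of the immediate-early genes was 0.60, 0.49, 0.09, -0.17 and -0.22. The interferon-stimulated genes had medians of -1.03, -0.28, -0.09, 0.22 and 0.31, and the matrix genes -0.59, -0.28, -0.11, -0.06 and -0.01. Other lists had another order: for GFP, K278* and full-length PREX2 the medians were -0.29, 0.30 and -0.07 for cytokines, -0.22, -0.05 and -0.20 for Hox and positional genes, 0.02, -0.20 and 0.06 for ribosomal proteins, and -0.20, -0.03 and -0.06 for the Wnt, BMP and TGF-beta genes. All these differences subtract the same LacZ array.

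**Figure D4:**
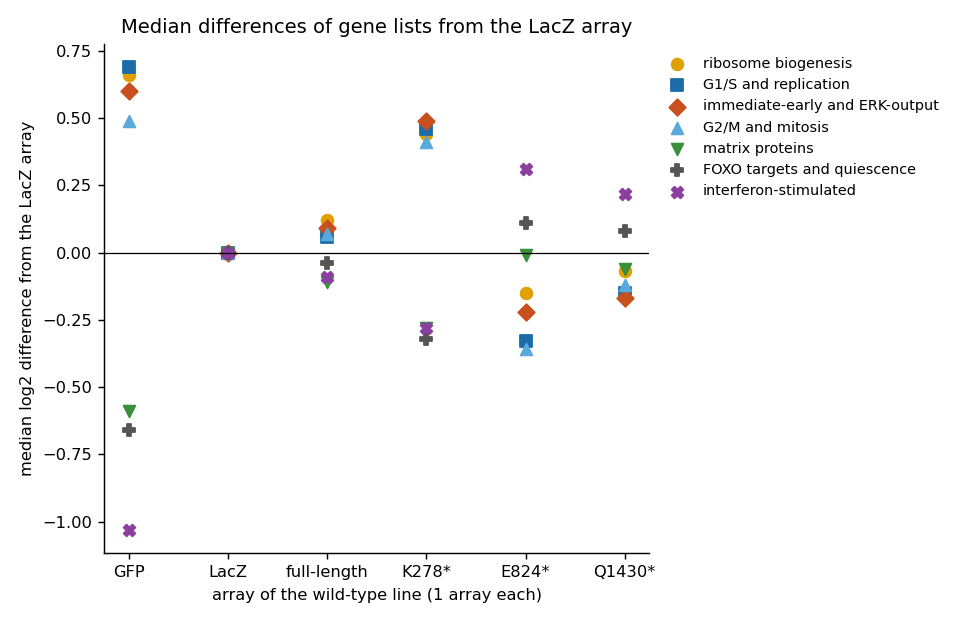
Median difference from the LacZ array (y axis, log2 scale) of the measured members of 7 gene lists on each array of the wild-type line (x axis, 1 array each; LacZ is 0 by construction). GFP has the largest differences, 0.49 to 0.69 for growth lists and -0.59 to -1.03 for the matrix, quiescence and interferon lists; K278* comes next in the same directions.

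The same genes were read in pairs of arrays that hold neither control. Within the wild-type line only the pair of K278* and Q1430* was read in this way. Its arrays had median positions of 0.44 and -0.04 on the scale above. The directions of the 742 genes in this pair follow in part from those positions and are no separate result. Between K278* and Q1430*, 65 genes were more than 2-fold higher with K278* (0.639%) and 141 higher with Q1430* (1.39%). Of the 182 genes higher with GFP, 94.0% were higher with K278* than with Q1430* (46.9% of all tested genes were), and of the 560 higher with LacZ, 94.5% were lower with K278* (53.1% of all). Of the 65 genes, 40 were among those higher with GFP (61.5% of the 65 and 22% of the 182), and of the 141, 111 were among those higher with LacZ (78.7% of the 141 and 19.8% of the 560). Over the 10177 genes the differences of the 2 pairs had a Pearson correlation of 0.71 and a Spearman correlation of 0.67, across genes of 4 arrays of 1 line, where genes are not independent replicates. The list medians for K278* minus Q1430* were 0.59 for replication, 0.70 for immediate-early, -0.50 for interferon-stimulated and -0.26 for matrix genes.

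GFP itself can be set against no insert in the null line only. There GFP and untransduced cells differed by more than 2-fold at 17 genes (0.167%) in each direction. Of the 182 genes higher with GFP in the wild-type line, 23.1% were higher with GFP in the null line (51.1% of all genes were), and of the 560 lower with GFP, 26.2% were lower (48.9% of all). Of these 742, 0 and 2 passed 2-fold in the same direction and 6 and 7 in the opposite one. The correlation across genes was -0.30 (Pearson) and -0.33 (Spearman). The replication list had a median of -0.28 in the null pair and the interferon list 0.20, opposite in sign to the wild-type pair, and the SD of all differences in the null pair was 0.248. Dcn, for example, read 9579 untransduced and 7556 with GFP in the null line, and Fosl1 547 and 465. The lines differ in genotype and origin, and the insert, the culture and the array of each sample cannot be told apart with 1 array per insert.

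**Figure D5:**
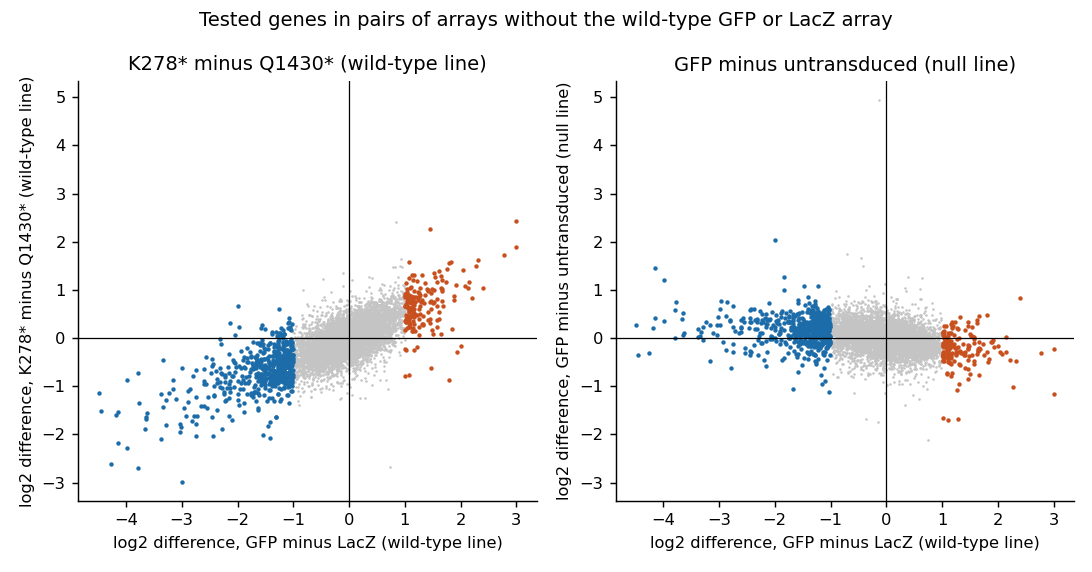
Differences of the 10177 tested genes between GFP and LacZ (x axis) against those of K278* minus Q1430* (left) and of GFP minus untransduced in the null line (right), all on log2(signal + 25); each point is 1 gene, orange more than 2-fold higher with GFP and blue more than 2-fold higher with LacZ. The points follow a rising band on the left (Pearson 0.71) and a flat, slightly falling one on the right (Pearson -0.30).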

How the data were processed

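Biotin-labelled RNA amplified from the 3' end was measured on Affymetrix arrays, per the labels' protocols. The authors deposited intensity values on a linear scale, computed with MAS5 per the submitters' processing notes; its version and target scale were not given in the sources used here. Every array had a mean of 500 once 2% was trimmed from each end. Detection calls were not used here, so a dim signal has no background call. Precision is limited by having 1 array for each insert.

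Of 45101 probe sets, 64 controls were left out, and the rest carried 1 gene symbol (34945), several (932) or none (9160) in the platform annotation. Only the first kind was named. A gene was read from its brightest probe set by mean over the 9 arrays, and was tested, meaning compared, when that mean was at least 100 (17362 probe sets, 10177 genes). The offset of 25 is 5% of the trimmed mean, and differences on that scale understate those of dim genes. Genes in lists without a probe set of a single symbol were not analysed here.

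With 1 array per insert no model was fitted and no p-value computed; the threshold was 2-fold. Genes named are the 15 highest and 15 lowest differences with a brighter signal of at least 200, up to 6 members past 2-fold per list (12 in the 6 main lists), and a short set named whatever their values; others are said to be named after their values were seen. The members and the 44 gene lists were chosen with earlier results of these data known. Computation used Python 3.11.15, numpy 2.4.6, pandas 2.3.3 and matplotlib 3.10.9, and the procedure was tested on simulated data. Promoters and gene names are from RefSeq (GRCm38.p6).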

Additional observations from a re-analysis of the deposited data

How the results depend on the processing

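With 1 array per insert, no array could be left out, and no paired analysis was possible because each insert has a single array; differences that come from the culture or the array were not separable. The number of genes more than 2-fold higher with GFP (182) was 107 with an offset of 100 and 493 with no minimum signal, and the number higher with LacZ (560) was 350 and 1017. Over the alternatives run (offsets of 5 and 100, quantile normalization, centring on the median, the mean of a gene's probe sets, other minimum signals, and the median of the PREX2 arrays in place of LacZ) the GFP side held 23.1% to 32.6% of the genes past 2-fold, against 24.5% as reported. Replication genes past 2-fold numbered 13 instead of 8 against the PREX2 median. Mitotic genes past 2-fold numbered 5 with an offset of 5, 1 with an offset of 100 and 0 with the mean of probe sets, instead of 3. Interferon-stimulated genes past 2-fold numbered 16 with an offset of 100, and 22 with a minimum mean of 100 over the GFP and LacZ arrays, instead of 25. The matrix count stayed within 1.5 times under every alternative. Several list medians depended on the setting. That of the 15 Notch and Hedgehog genes went from -0.73 to -0.43 with an offset of 100. It was -0.41 against the PREX2 median and -0.35 with no minimum signal. The interferon-stimulated median went from -1.03 to -0.73 with an offset of 100 and -0.76 with no minimum signal. With no minimum signal, complement and acute-phase genes had a median of -0.52 instead of -1.01. Growth factors and receptors then had -0.16 instead of -0.38, imprinted genes -0.15 instead of -0.49, and cytokines -0.06 instead of -0.29. No named gene among the 161 past 2-fold changed direction under 6 alternatives; 26 were under 2-fold with an offset of 100, 18 against the PREX2 median, 16 with the mean of probe sets (Cdkn1b, Gas1, Nek2, Mcm3 and Gins2 among them), 7 after quantile normalization, 2 after centring and 0 with an offset of 5. Lrp6 was among those lost under each but the offset of 5.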

Other observations

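Families outside the lists were looked at after their values were seen, taking every tested member, and are given as values only; of all tested genes, 5.5% were more than 2-fold higher with LacZ and 1.79% with GFP. Of 10 guanylate-binding proteins and immunity-related GTPases, 8 were more than 2-fold higher with LacZ and 0 with GFP (median -2.23). Besides those in the interferon list these included Gbp6 (3.06 with GFP and 216 with LacZ, log2 -3.10) and Irgm2 (36.2 and 349.7, log2 -2.61). The smallest difference was that of Irgm1 (679 and 901, log2 -0.40). Of 16 alcohol and aldehyde dehydrogenases and aldehyde oxidases, 7 were higher with LacZ and 0 with GFP (median -0.89), among them Aldh1a1, which makes retinoic acid (77.9 and 774, log2 -2.96). The ubiquitous Adh5 read 5466 and 5483.

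Of 6 receptors and signal transducers of the interleukin-6 family, 4 were higher with LacZ and 0 with GFP. The oncostatin M receptor Osmr read 1883 with GFP, 7888 with LacZ and 6979 to 7509.9 on the PREX2 arrays (log2 -2.05). The shared subunits Lifr and Il6st differed by -1.93 and -1.15, and the transcription factor Stat3 read 459 and 1424 (log2 -1.58). Of the R-spondins, ligands that strengthen Wnt signalling, Rspo2 and Rspo3 were lower with GFP (-1.87 and -2.16), as was their receptor Lgr5, while the related receptor Lgr6 was higher (149 and 51.4, log2 1.19). Of 6 death-promoting BH3-only genes, Bmf (-2.36) and Bcl2l11 (Bim, -1.64) were higher with LacZ and the other 4 did not pass 2-fold. Of 5 genes of the cornified envelope, 4 were higher with GFP (median 1.16). These genes build the surface barrier of keratinocytes. Sprr1a read 843 and 232 (log2 1.76) and up to 672 on a PREX2 array. The gap-junction protein Gja1 (connexin 43) read 7573 and 2915 (log2 1.37).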
